A study of Mus musculus with 6 samples.

Results

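The 10 genes described here make and load MHC class II molecules in sorted mouse thymocytes. They are H2-Aa, H2-Ab1, H2-Eb1, Cd74, Ciita, H2-DMa, H2-DMb1, H2-DMb2, H2-Oa and H2-Ob, chosen by symbol from the 47729 Ensembl genes counted, and each matched 1 gene ID. RNA was sequenced from FACS-sorted DN1a/b thymus cells of C57BL/6 mice, an early stage before commitment to the T lineage, in 3 groups of 2 libraries. RBPJ 6 days induced mice first lacked RBPJ, the DNA-binding partner of Notch receptors, and then received doxycycline (injected at 2 mg/ml, then 1 mg/ml in drinking water) to switch it on. RBPJ uninduced mice lacked RBPJ, and Control mice kept it throughout. The sources used here do not give the alleles, the promoter that drives the inducible gene or the age of the mice. They also do not say whether uninduced or Control mice received doxycycline, so its effect and that of RBPJ cannot be told apart in comparisons with induced libraries. Whether replicate libraries stand for different animals is not stated either, and each p therefore measures only library spread, which may be technical.

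MHC class II molecules sit on the surface of B cells, dendritic cells, macrophages and thymic epithelial cells and show peptides from taken-up protein to CD4 T cells. An alpha and a beta chain pair in the endoplasmic reticulum around the invariant chain (Cd74), which blocks the groove until the endosome. There H2-DM exchanges the remaining invariant chain fragment for antigenic peptide, and H2-O holds H2-DM back, mostly in B cells. CIITA, the product of Ciita, binds no DNA itself and is known to switch class II genes on through RFX and NF-Y proteins at X and Y boxes in their promoters. Mouse T cells do not normally carry class II, and these genes are therefore read in bulk RNA together with genes of the cell types that do.

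The X and Y boxes can be read from sequence without expression values. RefSeq windows on GRCm38.p6, from 250 bases before to 50 bases after a start site, were found for 7 of the 10 members. They are shown for 6 of them to place the X and Y boxes side by side. Capitals mark the Y box core TGATTGG and, before it on the same strand, the X box half-site GNAAC, and in H2-Ob also TTCCCAC, the reverse complement of the RBPJ motif GTGGGAA. The stretches read 5′ to 3′ on the strand of the gene.
H2-Aa: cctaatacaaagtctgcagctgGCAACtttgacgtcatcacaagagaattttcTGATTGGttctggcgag
H2-Eb1: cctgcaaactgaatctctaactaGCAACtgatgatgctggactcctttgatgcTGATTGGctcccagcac
H2-DMb1: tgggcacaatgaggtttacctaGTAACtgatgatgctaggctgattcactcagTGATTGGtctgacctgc
H2-DMb2: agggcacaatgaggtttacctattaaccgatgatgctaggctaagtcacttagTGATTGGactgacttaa
H2-Oa: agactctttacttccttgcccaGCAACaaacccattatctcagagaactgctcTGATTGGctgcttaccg
H2-Ob: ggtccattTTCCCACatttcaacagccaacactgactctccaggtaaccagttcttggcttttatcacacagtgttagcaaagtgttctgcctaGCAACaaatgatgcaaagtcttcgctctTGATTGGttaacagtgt

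These stretches lie at chr17:34287857-34287926 (minus strand, H2-Aa), chr17:34305753-34305822 (plus, H2-Eb1), chr17:34153075-34153144 (plus, H2-DMb1), chr17:34145104-34145173 (plus, H2-DMb2), chr17:34092281-34092350 (plus, H2-Oa) and chr17:34238724-34238862 (plus, H2-Ob). The Y box core began 50 bases before the RefSeq start site in H2-Aa (position -50). It began at -61 in H2-Eb1, -63 in H2-DMb1, -92 in H2-DMb2, -45 in H2-Oa and -59 in H2-Ob. The gene spans given below come from GENCODE M21 and can start elsewhere. The stretches of H2-DMb1 and H2-DMb2 lie inside those spans, and that of H2-Oa reaches into its span. The half-site began 31 bases before the Y box core in H2-Aa, H2-DMb1 and H2-Oa, 30 bases before it in H2-Eb1 and 28 bases before it in H2-Ob. H2-DMb2 holds the Y box core without a GNAAC match in that range. Searched on both strands, TGATTGG occurs in 7.82% of 32851 promoter windows, and GNAAC 20 to 50 bases before TGATTGG on the same strand in 0.852%. GTGGGAA on either strand occurs in 6.38% of windows, and among the 7 members it was matched in H2-Ob alone, at -173. Neither RefSeq window of H2-DMa holds TGATTGG. A match is a description of letters in the window and not of a bound site.

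Across the 6 libraries the 10 genes fell into clearly different ranges, and RBPJ uninduced replicate 2 held the highest level of 7 of them, all but H2-DMa, H2-Oa and H2-Ob. Levels are CPM, reads scaled to a common library total with TMM factors, and a level per exon length is RPKM. No member passed the threshold of an adjusted p under 0.05 in any comparison by edgeR's quasi-likelihood test with Benjamini-Hochberg adjustment over the 18174 genes tested, and all 10 members were among the genes tested. In bulk RNA, fewer cells of a type and less RNA per cell cannot be told apart.

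**Figure D1:**
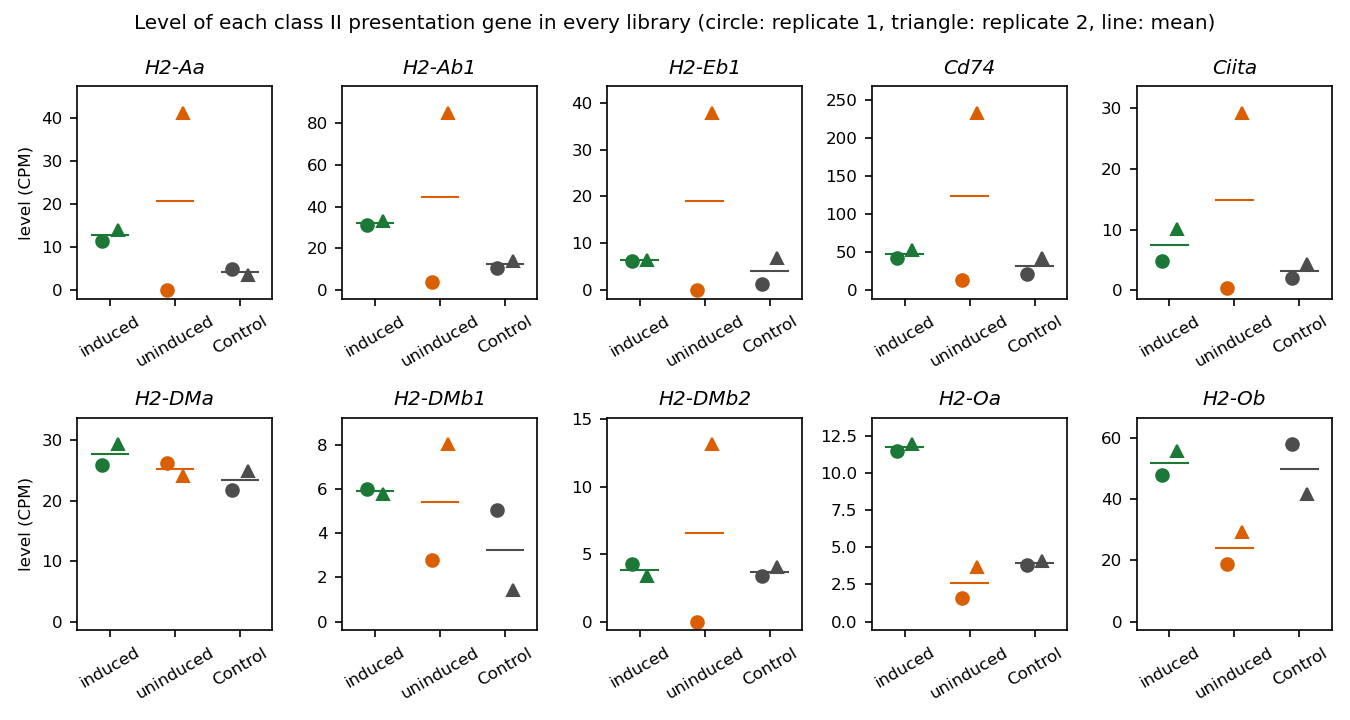
Level in CPM of each of the 10 genes in every library, for RBPJ 6 days induced, RBPJ uninduced and Control, with circles for replicate 1, triangles for replicate 2 and a line at each group mean (n = 2). H2-Aa, H2-Ab1, H2-Eb1, Cd74, Ciita and H2-DMb2 have their lowest and their highest library within the uninduced group, H2-DMa is level, and H2-Oa is highest in both induced libraries.

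The alpha and beta chains of I-A are encoded by H2-Aa (chr17:34282744-34287823, minus strand) and H2-Ab1 (chr17:34257689-34269419, plus strand). H2-Aa stood at 11.5 and 14.1 CPM in RBPJ 6 days induced libraries, at 0 and 41.2 CPM in RBPJ uninduced replicates 1 and 2, and at 4.87 and 3.54 CPM in Control. H2-Ab1 stood at 31.4 and 33.2 CPM in induced libraries, at 4.0 and 85.0 CPM in uninduced libraries and at 10.7 and 14.2 CPM in Control. Both induced libraries lay above both Control libraries for both genes, while the uninduced libraries lay on either side of all others. The count of 0 for H2-Aa in uninduced replicate 1 allows up to 0.522 CPM, taking 3 counts as the floor for counting error only.

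H2-Eb1 (chr17:34305867-34316674, plus strand) encodes the beta chain of I-E. C57BL/6 mice do not make the I-E alpha chain, so this beta chain lacks its usual partner. Its level was 6.27 and 6.43 CPM in induced libraries, 0 and 37.9 CPM in uninduced libraries, and 1.22 and 6.90 CPM in Control. The induced libraries fell within the range of Control here, unlike for the I-A genes. The I-E alpha pseudogene H2-Ea-ps held 0 to 5 counts in any library, and the related beta gene H2-Eb2 stood at 6.35 CPM in uninduced replicate 2 and at no more than 1.24 CPM in the other 5 libraries. H2-Eb1 overlaps an antisense gene, and the sources used here do not give the strand setting of the counts, so reads of overlapping genes cannot be told apart.

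Cd74, on chromosome 18, encodes the invariant chain and per exon length had the highest level of the 10 genes in all 6 libraries, at 7.77 to 139 RPKM. In uninduced replicate 1 that lead was narrow, with H2-DMa at 7.61 RPKM. Cd74 stood at 41.6 and 52.6 CPM in induced libraries, at 13.0 and 233 CPM in uninduced libraries and at 20.7 and 41.6 CPM in Control. The uninduced libraries differed from each other by more than any induced library differed from any Control library.

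Ciita (chr16:10480059-10528418, plus strand), the master switch, had few reads. It stood at 4.77 and 10.2 CPM in induced libraries, at 0.348 and 29.3 CPM in uninduced libraries and at 1.98 and 4.25 CPM in Control, where 0.348 CPM rests on 2 counts. The induced libraries lay above the Control libraries, and the order of all 6 libraries put uninduced replicate 1 lowest and uninduced replicate 2 highest. Ciita overlaps Dexi on the opposite strand.

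H2-DMa (chr17:34119541-34139101, plus strand), the alpha chain of the exchange factor, was the steadiest member, with a highest level 1.35 times its lowest. It stood at 26.0 and 29.3 CPM in induced libraries, at 26.3 and 24.1 CPM in uninduced libraries and at 21.8 and 24.9 CPM in Control. The uninduced libraries, which stood apart for the chain genes, lay within the range of the other 4 here, although without TMM scaling they were the highest and the lowest (29.6 and 19.8 CPM). Its span overlaps 4 annotated genes, among them Brd2 on the opposite strand.

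The beta chain of H2-DM is encoded by 2 genes, H2-DMb1 (chr17:34153072-34160230, plus strand) and H2-DMb2 (chr17:34143307-34151555, plus strand). Their longest coding transcripts in GENCODE M21 were 96% identical over 1045 aligned bases, and 26.6% of the 50-base stretches of the H2-DMb1 transcript also occur in that of H2-DMb2, so how the reads divide between them is uncertain. H2-DMb1 stood at 6.01 and 5.78 CPM in induced libraries, at 2.78 and 8.02 CPM in uninduced libraries and at 5.03 and 1.42 CPM in Control. H2-DMb2 stood at 4.24 and 3.35 CPM in induced libraries, at 0 and 13.2 CPM in uninduced libraries and at 3.35 and 4.07 CPM in Control. H2-DMb2 thus had the spread of the chain genes within the uninduced group, and H2-DMb1 had much less of it.

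H2-Ob (chr17:34238903-34254414, plus strand), the beta chain of the H2-DM inhibitor, was one of 2 members for which both uninduced libraries lay below all others. It stood at 47.9 and 55.6 CPM in induced libraries, at 18.8 and 29.2 CPM in uninduced libraries and at 57.9 and 41.6 CPM in Control. The means were 51.7 ± 5.49 CPM induced, 24.0 ± 7.37 CPM uninduced and 49.8 ± 11.6 CPM in Control (SD, n = 2 each). Induced and Control libraries overlapped.

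H2-Oa (chr17:34092340-34095234, plus strand), the alpha chain of that inhibitor, was the other. It stood at 11.5 and 11.9 CPM in induced libraries, at 1.56 and 3.68 CPM in uninduced libraries and at 3.81 and 4.07 CPM in Control. Both induced libraries lay above every other library. H2-Oa overlaps an antisense gene, and its uninduced replicate 1 value rests on 9 counts.

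Set per exon length, H2-Ob exceeded H2-Oa in all 6 libraries, but by different amounts. The RPKM of H2-Ob was 1.09 and 1.22 times that of H2-Oa in induced libraries, 3.14 and 2.08 times in uninduced libraries and 3.98 and 2.67 times in Control. H2-DMa per length was 0.923 and 1.00 times H2-Oa in induced libraries, 6.85 and 2.67 times in uninduced libraries and 2.33 and 2.5 times in Control. Both ratios were lowest in the induced libraries, where H2-Oa was highest.

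**Figure D2:**
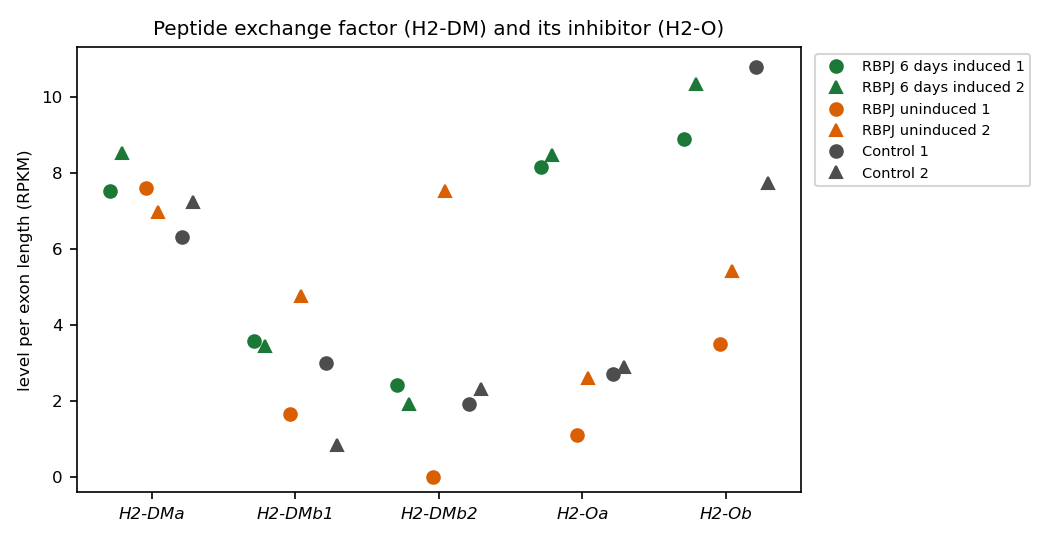
Level per exon length in RPKM of the genes of H2-DM (H2-DMa, H2-DMb1, H2-DMb2) and of its inhibitor H2-O (H2-Oa, H2-Ob) in each library, with groups by colour and replicates by marker. H2-Oa stands at 8.16 and 8.48 RPKM in induced libraries, above 1.11 and 2.61 RPKM in uninduced and 2.71 and 2.89 RPKM in Control libraries.

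Between RBPJ uninduced and Control libraries no member was past the threshold, against 5.42% of all genes tested (2.49% higher and 2.93% lower). The lowest p belonged to H2-Ob, with a log2 fold change of -1.05 (SE 0.297, unadjusted p = 0.00601, adjusted p = 0.0791 in edgeR). It was the member with an unadjusted p under 0.05, against 8.79% of all genes lower at that level. DESeq2 called it alone of the members (-1.12, adjusted p = 0.0143), against 6.5% of its tested genes called lower. The chain genes, Cd74 and Ciita were fitted between 1.86 (H2-Ab1) and 2.30 (Ciita and H2-Eb1) with standard errors between 0.924 and 1.49, and their adjusted p ran up to 0.476 and down to 0.286 in edgeR. H2-DMa was at 0.11, with a 95% interval of -0.52 to 0.74. The median over the 10 members was 1.36, against -0.02 over all genes tested. In H2-Oa and H2-Ob, 2 of 10 members, both uninduced libraries lay below both Control libraries, against 22.2% of all genes. In none did both lie above, against 22.1% of all genes.

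Between RBPJ 6 days induced and RBPJ uninduced libraries no member passed either, against 1.96% of all genes (1.55% higher and 0.413% lower). H2-Ob was at 1.10 (SE 0.297, unadjusted p = 0.00450, adjusted p = 0.106 in edgeR) and H2-Oa at 2.13 (SE 0.612, unadjusted p = 0.00654, adjusted p = 0.126 in edgeR). These 2 of 10 had an unadjusted p under 0.05, against 8.51% of genes higher at that level, and the same 2 had no overlap between the groups, against 24.8% of genes higher and 21.8% lower. DESeq2 called 1 member, H2-Ob (1.11, adjusted p = 0.0238), with 4.5% of its tested genes called higher. The chain genes and Cd74 were fitted between -1.59 (H2-Eb1) and -0.48 (H2-Ab1), with intervals that include 0. The median over the members was -0.59, against -0.03 over all genes. This comparison and that of uninduced with Control share the uninduced libraries, so their opposite signs are not independent.

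Between RBPJ 6 days induced and Control libraries no member passed by edgeR or DESeq2. Of all genes 0.187% passed by edgeR, all of them higher, and 1.12% higher and 0.328% lower by DESeq2. All 10 fold changes were above 0, with a median of 0.77 against -0.02 over all genes, but those of H2-DMb2 (0.04) and H2-Ob (0.05) were below 0 with other size factors (-0.03 and -0.01) and that of H2-Eb1 (0.71) without Control replicate 1 (-0.07). H2-Oa, at 1.57 (SE 0.596), had the smallest adjusted p of the members in edgeR (adjusted p = 0.779). It alone fell under 0.05 before adjustment, against 3.63% of genes higher at that level. In 7 of 10 members both induced libraries lay above both Control libraries, against 20.8% of all genes, and in none both below, against 16.8%. These 7 were H2-Aa, H2-Ab1, Cd74, Ciita, H2-DMa, H2-DMb1 and H2-Oa. Without TMM scaling Cd74 and H2-DMa overlapped, which left 5 of 10, against 17.2% of all genes, and the separation of Cd74 with scaling was 41.594 against 41.571 CPM. The 95% interval of H2-Ab1, at 1.39, ran from -0.69 to 3.47.

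**Figure D3:**
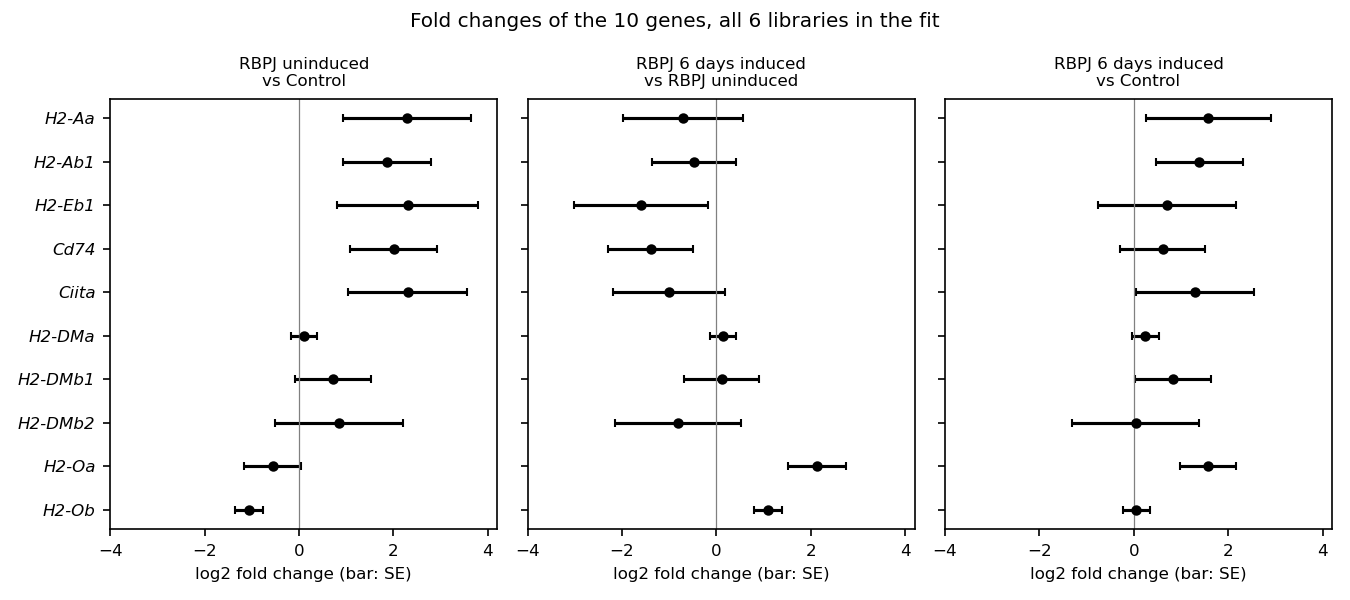
Log2 fold change of each gene in the 3 comparisons, with the standard error as a bar, from the fit of all 6 libraries. H2-DMa sits near 0 with short bars, while H2-Aa, H2-Ab1, H2-Eb1, Cd74 and Ciita have standard errors of 0.889 to 1.49.

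The direction of the chain genes, Cd74 and Ciita depended on the uninduced library kept in the fit. On log2(CPM + 0.5), uninduced replicate 1 minus replicate 2 was -6.38 for H2-Aa, -6.26 for H2-Eb1, -5.14 for Ciita, -4.77 for H2-DMb2, -4.25 for H2-Ab1 and -4.11 for Cd74. Of the 18174 genes, 3 had a larger absolute difference than H2-Aa and 81 a larger one than Cd74, and the median absolute difference was 0.61. For H2-DMa it was 0.12, for H2-Ob -0.62, for H2-Oa -1.02 and for H2-DMb1 -1.38. The same difference between induced libraries was at most 0.34 in absolute size for every member but Ciita (-1.02).

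Leaving out either uninduced library gave opposite answers, in fits where the remaining library is assumed to vary like the other groups. Without uninduced replicate 1, H2-Aa, H2-Ab1, H2-Eb1, Cd74 and Ciita were past the threshold as higher in uninduced replicate 2 than in Control (5 of 10, against 4.79% of genes called higher). With the same library left out, those 5 were past it as lower in induced libraries than in uninduced replicate 2 (2.61% of genes called lower). Without uninduced replicate 2, H2-Aa, H2-Ab1, H2-Eb1, H2-DMb2 and H2-Ob were past it as lower in uninduced replicate 1 than in Control (5 of 10, against 5.54% of genes called lower).

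In that last set of libraries, 8 of 10 members were past the threshold as higher in induced libraries than in uninduced replicate 1, against 4.53% of genes called higher. The other 2 were H2-DMa and H2-DMb1. H2-Ab1 was at 3.02 (adjusted p = 0.000677 in edgeR), Cd74 at 1.87 (adjusted p = 0.0112), H2-Oa at 2.91 (adjusted p = 0.0291) and H2-Ob at 1.48 (adjusted p = 0.0122). Against the floor of 3 counts in uninduced replicate 1, the induced mean of H2-Aa was at least 24.5-fold higher, that of H2-Eb1 at least 12.2-fold and that of H2-DMb2 at least 7.28-fold, while the Control means were at least 8.06-fold, 7.78-fold and 7.11-fold higher. For induced against Control libraries, leaving out uninduced replicate 1 put H2-Aa (1.57, adjusted p = 0.0286 in edgeR) and H2-Ab1 (1.40, adjusted p = 0.00542) past the threshold, with 1.27% of genes called higher. Leaving out uninduced replicate 2 did so for H2-Ab1 (1.39, adjusted p = 0.0219), with 1.16% of genes called higher.

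**Figure D4:**
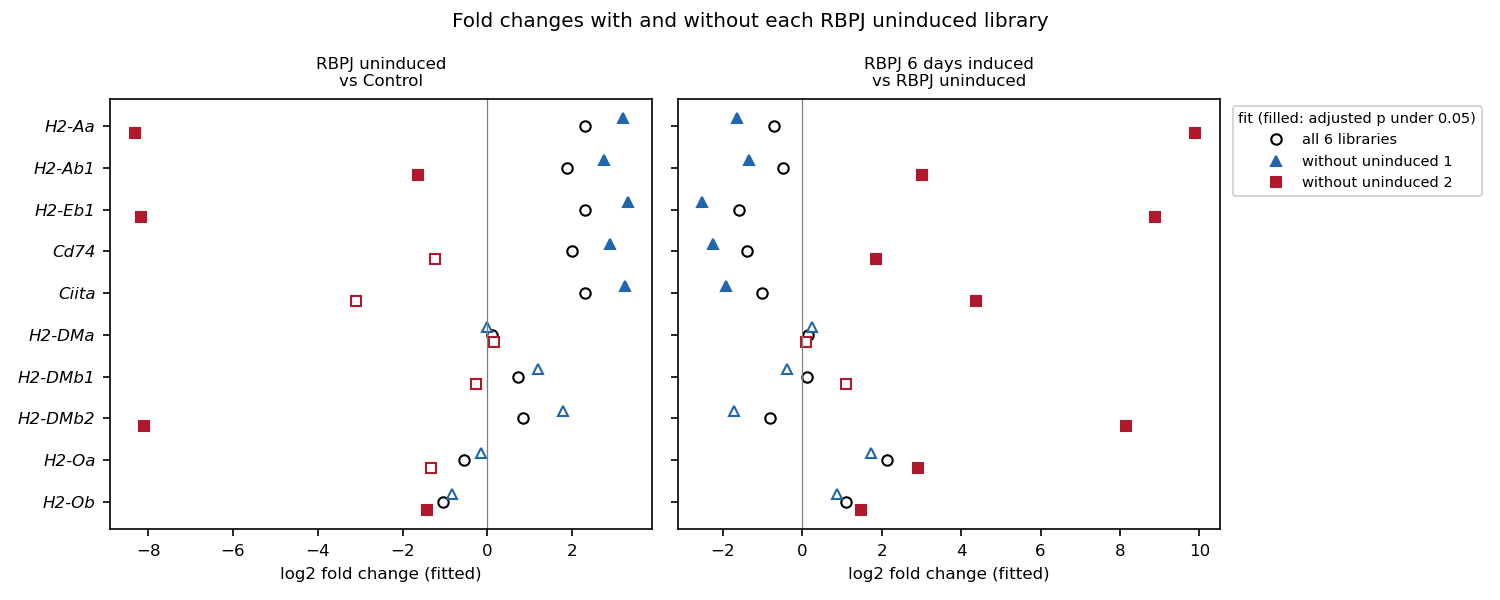
Fitted log2 fold change of each gene for RBPJ uninduced against Control and for RBPJ 6 days induced against RBPJ uninduced, with all 6 libraries and without either uninduced library, filled where the adjusted p was under 0.05. The chain genes, Cd74 and Ciita change sign with the uninduced library left out, H2-Ob and H2-Oa keep theirs, and values beyond 8 in size come from genes with 0 counts in the lone uninduced library and depend on the prior count of the fit.

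Markers of B cells, which carry class II, moved with the same library, as did the share of counts from mitochondrial rRNA, at 16.5% in uninduced replicate 2 against 9.26% to 12.4% in the other 5. The summed level of 12 B-lineage markers was 11 and 58.2 CPM in induced libraries, 36.7 and 929 CPM in uninduced replicates 1 and 2, and 7.16 and 31.1 CPM in Control. All 12 were above 1 CPM in uninduced replicate 2. The B-cell identity factor Pax5 stood at 0 and 11.6 CPM in induced libraries, at 5.39 and 249 CPM in uninduced libraries and at 0.228 and 3.89 CPM in Control. Of the 11 B-lineage markers tested, 1 rose in uninduced against Control libraries, where 2.49% of all genes did, the B-cell receptor chain Cd79a (5.49, adjusted p = 0.0435 in edgeR), and that call was lost without uninduced replicate 2 (2.57), Control replicate 1 (4.43) or Control replicate 2 (7.29). The count of markers called higher was 2 of 12 by DESeq2, 9 of 12 without a low-count filter and 6 of 11 with the replicate block. Of all genes tested in these fits, 4.96%, 2.03% and 2.88% were called higher. The marker count also changed with other settings. It was 10 of 12 without uninduced replicate 1, 9 of 12 without either induced library, and 0 without uninduced replicate 2, without either Control library, with a minimum count of 30 or with the 4 compared libraries. The number of the 12 markers at 0 was 4 and 0 in induced, 2 and 0 in uninduced and 5 and 1 in Control libraries. The part of B-lineage RNA and of the rRNA share in the class II values was not tested.

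The class II chains and the B-lineage markers did not keep 1 ratio across libraries. H2-Aa, H2-Ab1 and H2-Eb1 together made 49.1 and 53.7 CPM in induced libraries, 4.0 and 164 CPM in uninduced libraries and 16.8 and 24.6 CPM in Control. Per CPM of B-lineage markers that is 4.45 and 0.922 in induced libraries, 0.109 and 0.177 in uninduced libraries and 2.34 and 0.790 in Control. Induced replicate 1 had a chain sum close to that of induced replicate 2 and a B-lineage sum more than 5 times lower. Its H2-Aa and H2-Ab1 levels were above both Control libraries, while its H2-Eb1 level (6.27 CPM) was below that of Control replicate 2 (6.90 CPM). The part of B-lineage RNA in these chain levels was not tested.

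Other cell types that carry class II had marker sums that differed less between libraries. The sum of 10 conventional dendritic cell markers was 206 and 183 CPM in induced libraries, 72.5 and 83.8 CPM in uninduced libraries and 196 and 115 CPM in Control, with 0 to 5 of the 10 at 0. Flt3, which early progenitors also express, made 20.7 to 176 CPM of it, and the defining genes Xcr1 and Cd209a had at most 14 counts in any library. The dendritic cell factor Zbtb46 ran the other way from the sum, at 3.18 and 4.01 CPM in induced, 7.48 and 27.0 CPM in uninduced and 2.59 and 4.25 CPM in Control libraries, with both uninduced libraries above all others (log2 fold change 2.36 against Control, adjusted p = 0.0812 in edgeR). For 10 macrophage and monocyte markers it was 97.1 and 129 CPM in induced libraries, 107 and 124 CPM in uninduced libraries and 74.0 and 75.9 CPM in Control. For 10 thymic epithelial markers it was 61.6 and 64.8 CPM in induced, 36.0 and 51.5 CPM in uninduced and 62.5 and 80.5 CPM in Control libraries. The defining epithelial factor Foxn1 was at no more than 3.30 CPM and the macrophage marker Adgre1 at no more than 1.96 CPM in any library. For 8 plasmacytoid dendritic cell markers the sums were 189 and 199 CPM in induced and 177 and 210 CPM in Control libraries. Uninduced replicates 1 and 2 held the lowest and the highest of these sums, 137 and 241 CPM. Much of that gap came from Spib alone, at a mean of 41.1 CPM (SD 58.1, n = 2) in uninduced libraries. Its mean was 1.74 CPM in induced and 0.722 CPM in Control libraries. For 6 markers of group 3 innate lymphoid cells the sums ran from 22.4 to 154 CPM. In uninduced against Control libraries, where 2.49% of all genes were called higher and 2.93% lower, 1 of 7 tested macrophage and monocyte markers rose (Ccr2), and 1 of 7 plasmacytoid (Ccr9), 1 of 9 epithelial (Ly75) and 1 of 4 innate lymphoid markers (Il1r1) fell by edgeR. With the 4 compared libraries 0 were called in all of these lists but the plasmacytoid one. The macrophage count was also 0 without Control replicate 1, the epithelial one without Control replicate 2, and the innate lymphoid one without either Control library, with a minimum count of 30 and by DESeq2. The part of these cell types in the class II values was not tested.

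**Figure D5:**
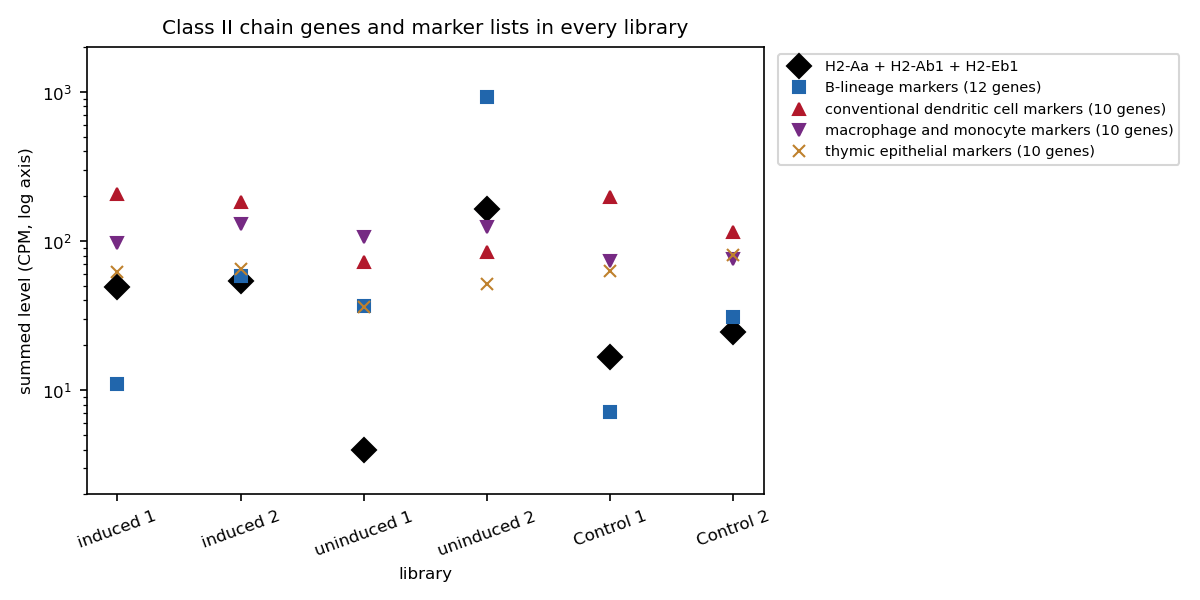
Summed level in CPM, on a log axis, of H2-Aa, H2-Ab1 and H2-Eb1 and of 4 marker lists in each library. The chain genes and the B-lineage markers are both highest in RBPJ uninduced replicate 2 (164 and 929 CPM), and the chain genes are lowest in RBPJ uninduced replicate 1 (4.0 CPM).

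All 10 listed DN1 and T-lineage markers had reads in every library, although 1 was under 1 CPM in uninduced replicate 1. The summed level of 10 DN1 and T-lineage markers was 2510 and 2513 CPM in induced, 1322 and 1372 CPM in uninduced and 3088 and 2924 CPM in Control libraries. Of these 10, 5 fell in uninduced against Control libraries (2.93% of all genes) and 4 rose in induced against uninduced libraries (1.55% of all genes), among them Notch1 and Tcf7 in both. With the 4 compared libraries these counts were 2 and 2, against 0.816% of genes called lower and 0.451% called higher. Both counts were larger without uninduced replicate 2, where more of all genes were called too. Rbpj RNA, the check of the labels, stood at 198 and 203 CPM in induced, 28.2 and 30 CPM in uninduced and 74.1 and 72.9 CPM in Control libraries. Against Control, the uninduced level was reduced (log2 fold change -1.34, adjusted p = 0.00495 in edgeR) but not at 0, and counts over a whole gene do not show whether its RNA makes protein. In induced libraries it was higher than in Control (1.45, adjusted p = 0.0175 in edgeR). Total counts per library ran from 5098927 to 12932928.

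Among the proteins that carry CIITA to the promoters, the RFX and NF-Y subunits were read in every library at 7.30 CPM or more. Of 12 class II transcription factor genes, 1 rose and none fell in uninduced against Control libraries, against 2.49% and 2.93% of all genes. None passed in either direction for induced against uninduced libraries (unadjusted p under 0.05 for 5, against 15.4% of all genes). The same held for induced against Control (unadjusted p under 0.05 for 2, against 5.17%). In uninduced against Control DESeq2 called 1 higher and 1 lower, against 4.96% and 6.5% of its tested genes. It called none in induced against uninduced and 1 higher in induced against Control (1.12%). The riser was Irf8, a factor of myeloid, dendritic and B cells. Irf8 stood at 48.0 and 55.3 CPM in induced libraries, at 38.8 and 71.1 CPM in uninduced libraries and at 15.4 and 11.3 CPM in Control. Its change in uninduced against Control libraries was 2.03 (SE 0.339, adjusted p = 0.0106 in edgeR), lost without Control replicate 2 (1.73, adjusted p = 0.0651) and with the 4 compared libraries alone (adjusted p = 0.0703). For induced against Control the adjusted p of Irf8 was 0.0653, and DESeq2 called it (1.88, adjusted p = 8.84e-05). Irf4, a factor of activated lymphocytes and dendritic cells, stood at 118 CPM in uninduced replicate 2 and at 2.61 to 11.5 CPM in the other 5 libraries, the same library in which Ciita was highest.

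Of 9 genes of endosomal processing and class II turnover, none passed by edgeR in any comparison, with 3 higher at an unadjusted p under 0.05 in uninduced against Control (10% of all genes), 4 lower in induced against uninduced (6.93%) and none in induced against Control. DESeq2 called 2 higher (4.96% of its tested genes), 1 lower (2.56%) and 0. The thiol reductase Ifi30 and the ubiquitin ligase March8 were highest in uninduced replicate 2, and both uninduced libraries lay above the other 4, unlike for the chain genes. Ifi30 stood at 1.94 and 3.26 CPM in induced, 7.13 and 52.2 CPM in uninduced and 2.51 and 5.84 CPM in Control libraries. March8, whose product removes class II from the surface, stood at 7.86 and 8.48 CPM in induced, 12.3 and 35.1 CPM in uninduced and 6.40 and 6.55 CPM in Control libraries. The endosomal protease Ctss stood at 35.1 and 34.0 CPM in induced, 7.48 and 32.1 CPM in uninduced and 29.7 and 19.3 CPM in Control libraries.

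Of 6 costimulation genes 5 were tested and none passed by edgeR or DESeq2 in any comparison. At an unadjusted edgeR p under 0.05 there was none in uninduced against Control, against 18.8% of all genes in either direction. The same 1 gene was higher at that level in induced against uninduced (8.51% of all genes higher) and in induced against Control (3.63%). That gene was Cd274, the ligand PD-L1, which stood at 33.8 and 28.3 CPM in induced, 17.4 and 15.7 CPM in uninduced and 7.69 and 16.6 CPM in Control libraries.

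MHC class I molecules, some of them encoded in the same H2 region, show peptides made inside the cell. Of 13 listed, 2 rose in uninduced against Control libraries, where 2.49% of all genes did. They were the chaperones Calr (1.53, adjusted p = 0.00181 in edgeR) and Pdia3 (0.67, adjusted p = 0.0489), neither of them in the H2 region. The Pdia3 call held without uninduced replicate 1 (0.71) and was lost without any one of the other 5 libraries (0.52 to 0.75). Calr fell in induced against uninduced libraries (-0.94, adjusted p = 0.0260), a call lost without induced replicate 1 (-0.80) or 2 (-1.01) and with the 4 compared libraries alone (-0.94, adjusted p = 0.0761). In induced against Control libraries all 13 fold changes were above 0, with a median of 0.59, and 11 of 13 had both induced libraries above both Control libraries, against the 20.8% of all genes given above. None passed by edgeR, where 0.187% of all genes did. The edgeR p of 8 fell under 0.05 before adjustment, against 3.63% of all genes higher at that level. DESeq2 called 5 higher, against 1.12% of its tested genes. The class I heavy chain H2-K1, one of a family of close copies that can share reads, stood at 799 and 760 CPM in induced, 445 and 669 CPM in uninduced and 425 and 387 CPM in Control libraries. Nlrc5, the class I counterpart of Ciita, stood at 190 and 210 CPM in induced, 94.1 and 128 CPM in uninduced and 107 and 76.4 CPM in Control libraries (1.12 against Control, unadjusted p = 0.000821, adjusted p = 0.139 in edgeR). Nlrc5 was therefore highest in both induced libraries, whereas Ciita was highest in uninduced replicate 2.

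The profile of the 3 chain genes over the 6 libraries, taken as the mean of their centred log2(CPM + 0.5), was compared with 10208 named genes of average log2 CPM of at least 2. The nearest by root mean square difference were Il2rb, a chain of the interleukin 2 and 15 receptors (0.485), Klhdc8b (0.622), the kynurenine pathway enzyme Kmo (0.641), Ifi214 of the interferon-activated family (0.663) and the guanylate-binding protein Gbp9 (0.669). Il2rb stood at 16.9 and 11.9 CPM in induced, 0 and 25.1 CPM in uninduced and 3.12 and 6.19 CPM in Control libraries. Among the members not used for the profile, Ciita (0.343) and H2-DMb2 (0.616) were closer than Klhdc8b, and Cd74 (0.673) was just beyond Gbp9. H2-DMb1 (1.42) and H2-Oa (1.42) were farther away, with 6.05% and 6.39% of the compared genes nearer to the profile. For H2-Ob (1.60) and H2-DMa (1.73), 23.3% and 49.8% of the compared genes were nearer.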

How the data were processed

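The deposited files, 1 per library, hold raw counts for each Ensembl gene, not normalized by the authors. The submitters' processing notes name HISAT2, StringTie, HTSeq and the build mm10, and versions, strand setting and annotation release do not appear in the sources used here. Names, coordinates and exon lengths came from GENCODE M21 (GRCm38, the build of mm10), which matched 47310 of 47729 IDs. In R 4.3.3, edgeR 4.0.16 kept 18174 genes (filterByExpr, minimum count 10, minimum total 15), scaled libraries by TMM and fitted 1 quasi-likelihood model with a mean per group (3 residual degrees of freedom). All groups share 1 estimate of spread, although the chi-square per degree of freedom between replicates was 16.4 in induced, 54.1 in uninduced and 20.6 in Control libraries. The standard error is the log2 fold change divided by the square root of F. The fit was tested on simulated data. The 10 members and the other 12 lists were chosen with earlier results of these data known. All members are named, and from each other list up to 4 genes of smallest p. Rbpj, Flt3, Zbtb46, Pax5, Xcr1, Cd209a, Foxn1, Adgre1, Ctss, H2-K1 and the list genes given only by level were named after their values were seen. Alternatives were DESeq2 1.42.0, RLE size factors, no filter or a minimum count of 30, the 4 compared libraries, a replicate block and each library left out in turn, and, added after seeing the data, levels without TMM scaling.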

Additional observations from a re-analysis of the deposited data

How the results depend on the processing

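No member passed in any comparison, and this held for all 3 comparisons with RLE size factors, the 4 compared libraries alone and the replicate block. For uninduced against Control, induced against uninduced and induced against Control in turn, the genes called numbered 1675, 1033 and 212 by DESeq2, 1540, 989 and 304 without a low-count filter, and 219, 71 and 177 with the 4 compared libraries. Members called were 1, 1 and 0 by DESeq2 and 6, 2 and 1 without a filter. Without a filter, 5 were higher and 1 lower in uninduced against Control (2.03% of genes higher and 2.28% lower). In induced against uninduced 1 was higher and 1 lower (1.89% of genes higher and 0.88% lower). In induced against Control 1 was higher (0.692% of genes higher and 0.16% lower). A minimum count of 30 called 1 (H2-Ob) lower in uninduced against Control, against 4.75% of genes called lower. With 1 library left out, 445 to 2000, 171 to 1374 and 30 to 337 genes and 0 to 5, 0 to 8 and 0 to 2 members were called. Over these fits, uninduced against Control ran from -8.31 to 3.20 for H2-Aa, -1.63 to 2.74 for H2-Ab1, -8.18 to 3.83 for H2-Eb1, -1.24 to 2.89 for Cd74, -3.09 to 3.25 for Ciita, -0.0028 to 0.16 for H2-DMa, -0.28 to 1.97 for H2-DMb1 and -8.11 to 1.78 for H2-DMb2. Induced against uninduced ran from -1.63 to 9.89 for H2-Aa, -1.34 to 3.02 for H2-Ab1, -2.52 to 8.89 for H2-Eb1, -2.25 to 1.87 for Cd74, -1.92 to 4.38 for Ciita, -0.39 to 1.09 for H2-DMb1, -1.73 to 8.15 for H2-DMb2 and -0.41 to 0.43 for Irf8. Induced against Control ran from -0.0705 to 2.33 for H2-Eb1, -0.11 to 0.18 for H2-DMb2 and -0.20 to 0.36 for H2-Ob. Without TMM scaling, chosen after seeing the data, the members higher without overlap in induced against Control libraries numbered 5 in place of 7, and the other such counts were equal. Fitted values beyond 8 rest on 0 counts in uninduced replicate 1. H2-DMb2 in induced against Control was -0.0302 by DESeq2, -0.0292 with RLE, -0.0161 with the minimum of 30 and -0.00745 with 4 libraries, and H2-Ob was -0.0108 by DESeq2 and -0.0123 with RLE. Over all genes the differences between replicates were close to uncorrelated among groups (correlation of deviations -0.04, 0.01 and 0.02). Such a value cannot show whether the shared replicate numbers pair the samples for single genes. In all 3 groups replicate 2 had the higher B-lineage sum, mitochondrial rRNA share and levels of H2-Ab1, H2-Eb1, Cd74, Ciita and H2-Oa. The other members did not keep this order in all 3 groups. Without TMM scaling, induced replicate 1 was instead the higher for H2-Ab1 (32.0 against 31.7 CPM), H2-Eb1 (6.40 against 6.14 CPM) and H2-Oa (11.7 against 11.4 CPM). With the replicate block, 108 genes were called in induced against Control, and induced against uninduced was 0.0364 for H2-Aa, 0.21 for H2-Ab1, 0.0643 for H2-Eb1 and 0.0130 for H2-DMb2. The cause of these changes was not tested. With 2 libraries a group, and 5098927 counts in the shallower uninduced library, members under about 10 CPM rest on few reads.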
